A study of Mus musculus with 12 samples.

Results

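The astrocyte genes described here are 41 genes, chosen by symbol as markers of astrocytes, of the 24421 genes in the count tables. All 41 had a row in every library. They were followed across the 4 groups of a mouse RNA sequencing study of the dorsal hippocampus, in which Mbnl2 knockout (KO) and wild type (WT) males of the 129sv/C57BL/6j strain, 4 to 5 months old, were either trained or kept as house controls. Mbnl2 encodes a muscleblind-like protein that binds RNA and regulates splicing. Each of the groups trained KO, house control KO, trained WT and house control WT had 3 libraries, 12 in all. The labels name neither the targeted allele, nor the task, nor the time from training to dissection, and they do not say that the 3 libraries of a group came from separate mice, so the tests measure the spread between these libraries.

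Astrocytes are glial cells that tile the brain, wrap synapses with fine processes and cover blood vessels with endfeet. They take up glutamate and GABA released by neurons, turn glutamate into glutamine, buffer potassium and water, share ions and metabolites through gap junctions, and secrete lipoproteins and proteins that act on synapses. When tissue is injured or inflamed they become reactive, and the intermediate filament genes Gfap and Vim are the usual markers of that state. In the hippocampus, radial stem cells of the dentate gyrus share several of these genes with astrocytes.

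Library totals ran from 19737929 to 27427076 counts, and 41 of 41 astrocyte genes passed the filter on low counts, which left 15622 genes. The lowest raw count of any of the 41 in any library was 163, for Cyp4f15. Levels are given in CPM, read counts scaled to a common library size by TMM. Mbnl2 itself stood at 508, 473 and 542 CPM in trained mice labelled KO and at 488, 469.9 and 454 CPM in house controls labelled KO. The WT libraries had 360.3, 363 and 365 CPM when trained and 338, 315 and 323 CPM as house controls. Its gene count was higher in every KO-labelled library, which is no check of the labels if the allele deletes single exons, and the genotype directions below are those of the labels. Some libraries stood apart in tissue content. Summed choroid plexus markers ran from 163 to 11964 CPM in trained and from 292 to 23055 CPM in house control libraries. WT house control replicates 2 and 3, WT trained replicate 3 and KO trained replicate 2 had the most of them. KO house control replicate 3 was, with both of these WT house controls, among the 3 libraries richest in thalamus markers. Some results are also given without these 5 libraries, high in choroid plexus or thalamus markers. That fit keeps 1 WT house control, whose spread is assumed to be that of the other groups. Both KO libraries numbered 2, and WT house control replicate 3, were rich in striatum, septum and neocortex transcripts.

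The 41 genes were well measured in this tissue, and none of the defining astrocyte markers (Gfap, Aqp4, Slc1a2, Slc1a3, Gja1, Aldh1l1, Glul and Sox9) was near 0. Together they made up 1.22% to 1.64% of all counts of a library. Levels of different genes are compared here only per length, as CPM per kilobase of annotated exons (GENCODE annotation of mm10). On that scale Apoe, the main lipid carrier of the brain, was highest, with a mean of 806 over the 12 libraries. Sparcl1, which encodes the synapse-promoting protein hevin, followed at 498, and Glul, which encodes glutamine synthetase, at 431. Clu, a secreted chaperone of lipoprotein particles, had 277 and Mt3, the brain metallothionein, 259.7, while Slc1a2, the main glutamate transporter of the forebrain, had 241. At the other end were Cbs, an enzyme of cysteine synthesis, with 3.63, and Cyp4f15, a cytochrome P450, with 4.03.

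**Figure D1:**
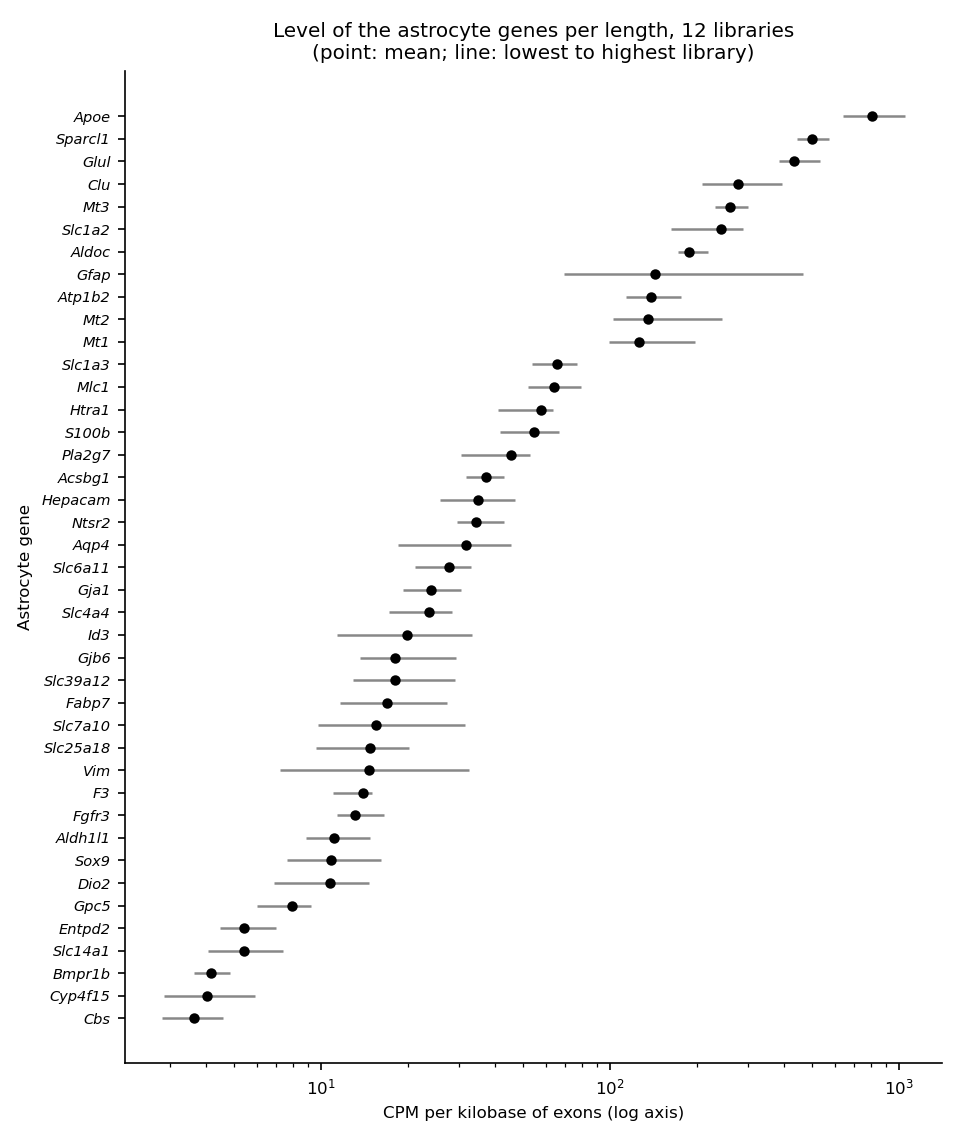
Mean level of each of the 41 astrocyte genes over 12 libraries in CPM per kilobase of exons on a log axis, with a line from the lowest to the highest library. The genes span from 3.63 for Cbs to 806 for Apoe, and the line is widest for Gfap, from 69.1 to 464.

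Neighbours in this order mostly overlapped across libraries. Apoe ran from 638 to 1046 and lay above Sparcl1 (444 to 572) in every library range, whereas Sparcl1 and Glul (384 to 532) overlapped, as did Clu (208 to 394), Mt3 (230.1 to 299.9) and Slc1a2 (163 to 288). With the longest annotated transcript in place of all exons, Apoe still ranked 1st and Glul 5th. A total of 5 genes share exon bases with another counted gene (Slc7a10 with Lrp3, Slc25a18 with Atp6v1e1, Glul with Teddm2 and a microRNA, Pla2g7 with an antisense gene, and Entpd2 with Npdc1). Whether strand was used in counting is not stated, so reads in those stretches cannot be assigned with certainty.

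The genes differed in how steady they were within groups. The pooled SD of log2 levels within groups was under 0.15 for 12 of the 41. It was lowest for the glycolytic enzyme Aldoc (0.07) and for Mt3 and the BMP receptor gene Bmpr1b (0.09 each). It was 0.3 or more for 7 genes, led by Gfap (0.65), Vim (0.58), the neutral amino acid transporter gene Slc7a10 (0.47), the transcription regulator gene Id3 (0.39) and Mt2 (0.37). These values describe levels in whole dissected tissue, where fewer astrocytes and less RNA per astrocyte cannot be told apart.

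The comparison of trained with house control mice asked which transcripts differ after training. Levels of most astrocyte genes lay lower in the trained libraries, by small amounts, and none of the 41 passed the threshold of edgeR's test. Over both genotypes, 38 of the 41 had a negative log2 fold change, trained over house control, while 52.3% of all genes tested did. The median over the 41 was -0.24, beside -0.01 over all genes. At an adjusted p under 0.05, edgeR's quasi-likelihood test called 0 of the 41, and 0 of 15622 genes in all (0%). At an unadjusted p under 0.05, 18 of the 41 were lower and 0 higher, a share of 43.9%, beside 6.59% of all genes that were lower.

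**Figure D2:**
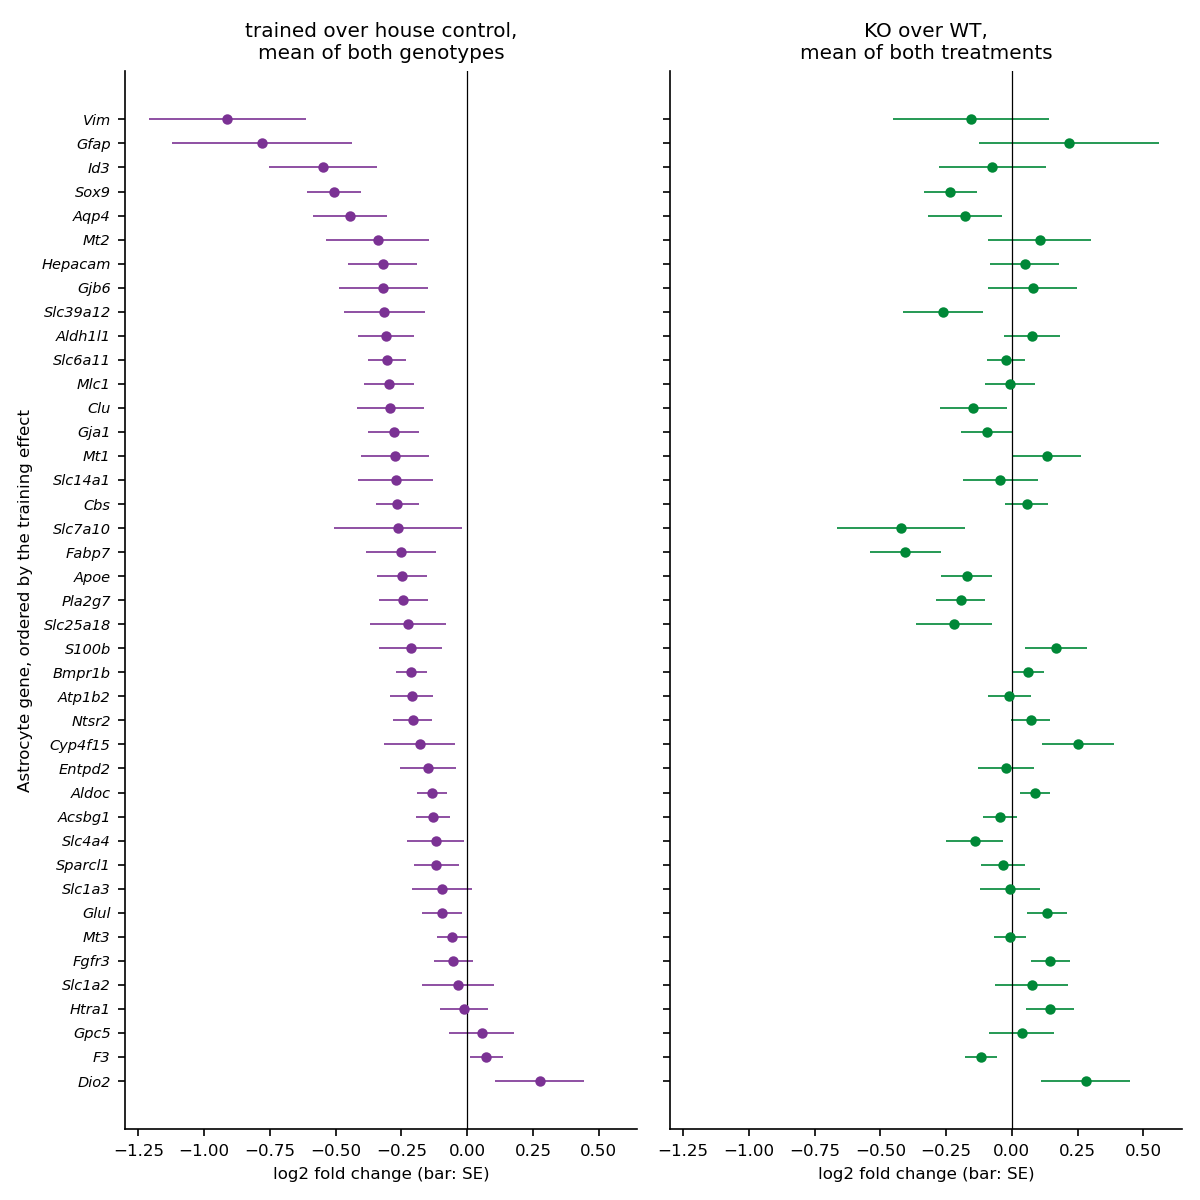
Log2 fold change with its SE for each of the 41 astrocyte genes, left for trained over house control and right for KO over WT, in the same gene order. On the left 38 points lie below 0, with a median of -0.24, and on the right 23 do, with a median of -0.01.

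DESeq2, run as an alternative, called 2 of the 41 genes lower over both genotypes, Sox9 and Slc6a11, beside 0.306% of all genes that it tested. Sox9 encodes the transcription factor that marks astrocyte nuclei and drives glial fate. It had 33.9, 31.6 and 35.1 CPM in trained KO and 45.6, 50.7 and 49.7 CPM in KO house controls, and 45.2, 33.4 and 42.4 CPM in trained WT against 45.0, 56.2 and 66.7 CPM in WT house controls. The trained KO libraries all lay below the KO house controls, while in WT 1 trained library was level with the lowest house control. The log2 fold change over both genotypes was -0.51 (SE 0.10, unadjusted p = 0.000463 and adjusted p = 0.379 by edgeR, adjusted p = 0.00700 by DESeq2). Without the 5 libraries high in choroid plexus or thalamus markers it was -0.33 by edgeR, and within WT it was then -0.19, beside -0.47 with them. The authors' deposited table for trained against house control KO mice gives Sox9 a log2 fold change of -0.53 and an adjusted p of 0.00539, where 0.0409% of its genes were called lower.

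Slc6a11 encodes GAT3, the GABA transporter of astrocyte processes. It had 140.4, 107 and 129 CPM in trained KO and 138, 154 and 167 CPM in KO house controls, and 127, 125 and 126 CPM in trained WT against 153, 159.6 and 159.8 CPM in WT house controls. All trained WT libraries lay below all WT house controls, and in KO the ranges overlapped by 1 library. The log2 fold change over both genotypes was -0.30 (SE 0.07, unadjusted p = 0.00149 and adjusted p = 0.414 by edgeR, adjusted p = 0.0365 by DESeq2), and -0.19 without the 5 libraries. The authors' deposited table for trained against house control WT mice gives -0.32 with an adjusted p of 0.0147, where 0.0927% of its genes were called lower. Sox9 and Slc6a11 were each called in 1 of the authors' tables on training, and 0 of the other 39 genes was called in either.

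**Figure D3:**
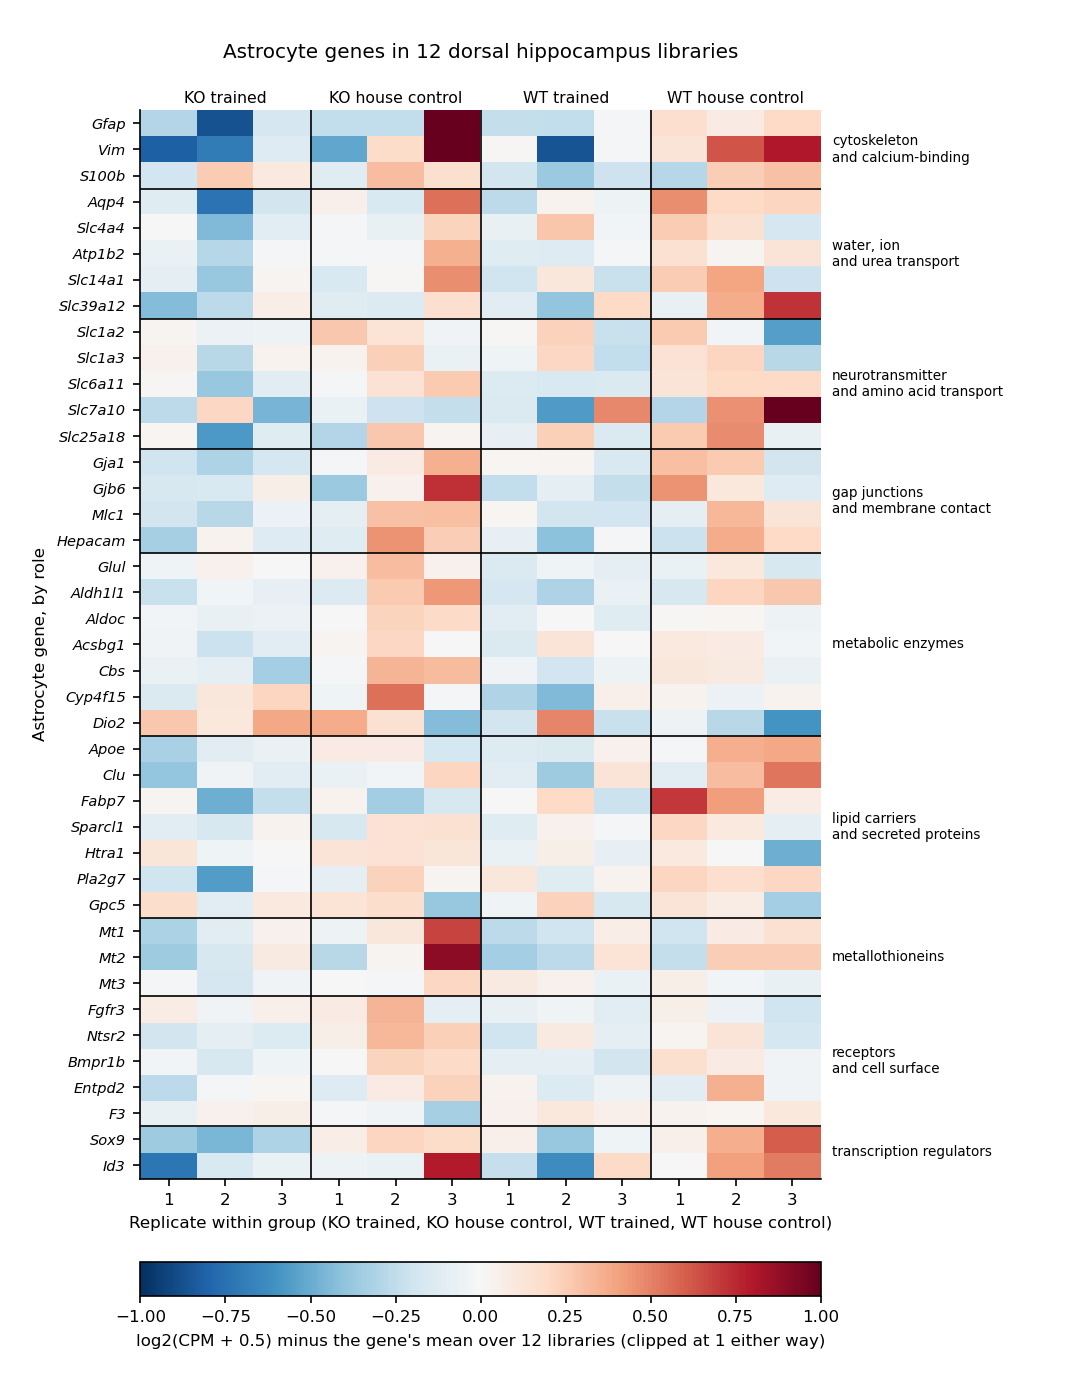
Level of the 41 astrocyte genes in the 12 libraries as log2(CPM + 0.5) minus the gene's mean, grouped by role, red above and blue below the mean. Colours stop at 1 either way. The highest value is in a house control column for 37 of the 41 genes, and KO house control replicate 3 is at the red end for Gfap, at 1956 CPM.

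By library, 37 of the 41 genes had their highest level in a house control library and 4 in a trained one, WT trained replicate 2 for each of the 4. A total of 31 had their lowest level in a trained library and 10 in a house control. KO house control replicates 2 and 3 were highest for 13 genes each, and those were different genes. Replicate 3 was highest for Gfap, Vim, Aqp4, the gap junction genes Gja1 and Gjb6, the metallothioneins and Id3 among others. Replicate 2 was highest for enzymes and receptors such as Glul, Aldoc, Acsbg1, Cbs, Fgfr3 and Ntsr2. KO trained replicate 2 was lowest for 14 genes. Summed over the 41 genes, the level was 12852, 12563 and 13457 CPM in trained KO and 14312, 15112 and 16281 CPM in KO house controls, and 13075, 13912 and 13173 CPM in trained WT against 14974, 15249 and 13717 CPM in WT house controls. The groups did not overlap in KO, and in WT the lowest house control lay below the highest trained library.

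Within WT, 35 of the 41 genes had a negative log2 fold change with training (median -0.20, beside 51.7% negative among all genes), and 5 were lower at an unadjusted p under 0.05, beside 5.04% of all genes. Within KO, 37 were negative (median -0.22, beside 50.9%) and 13 were lower at that p, beside 2.04%. edgeR called 0 of the 41 and 0 of 15622 genes (0%) at an adjusted p under 0.05 in either genotype. DESeq2 called 0 of the 41 in either, beside 0.0734% of all genes in WT and 0.0449% in KO. Both fold changes were negative for 34 genes, both were positive for 3 and the signs differed for 4. Sox9, Slc6a11 and Bmpr1b were the 3 genes with an unadjusted p under 0.05 in both genotypes. The share of all genes that met this in both was not counted, so the 3 have no baseline.

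These counts of unadjusted p-values depended on single libraries. How many of all genes met that p in each fit below was not counted, so the changes have no baseline. In KO the 13 became 3 without KO trained replicate 2, 8 without KO trained replicate 1 and 4 without KO house control replicate 3. In WT the 5 became 10 without WT house control replicate 1, 8 without KO house control replicate 1, 2 without WT house control replicate 2 or WT trained replicate 1, and 3 without WT trained replicate 2. Over both genotypes the 18 became 5 without the 5 libraries high in these tissue markers, and the median -0.14.

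Levels did not overlap between trained and house control libraries, with trained lower, for 7 genes in WT (Gfap, Vim, Aqp4, Atp1b2, Slc6a11, Pla2g7 and Bmpr1b), beside 7.78% of all genes. In KO they did not overlap for 9 genes (Gja1, Aldoc, Acsbg1, Cbs, Mt3, Ntsr2, Bmpr1b, Sox9 and Id3), beside 4.54%. Bmpr1b was in both lists, and the share of all genes that were in both was not counted. Bmpr1b therefore has no baseline here, and with the genotypes pooled its trained and house control libraries overlapped. It had 24.2, 22.0 and 23.9 CPM in trained KO and 24.7, 29.0 and 28.3 CPM in KO house controls, and 23.04, 23.1 and 21.7 CPM in trained WT against 27.6, 26.1 and 24.1 CPM in WT house controls. The gap between the nearest libraries was small, and the log2 fold change over both genotypes was -0.21 (SE 0.06, adjusted p = 0.414 by edgeR).

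**Figure D4:**
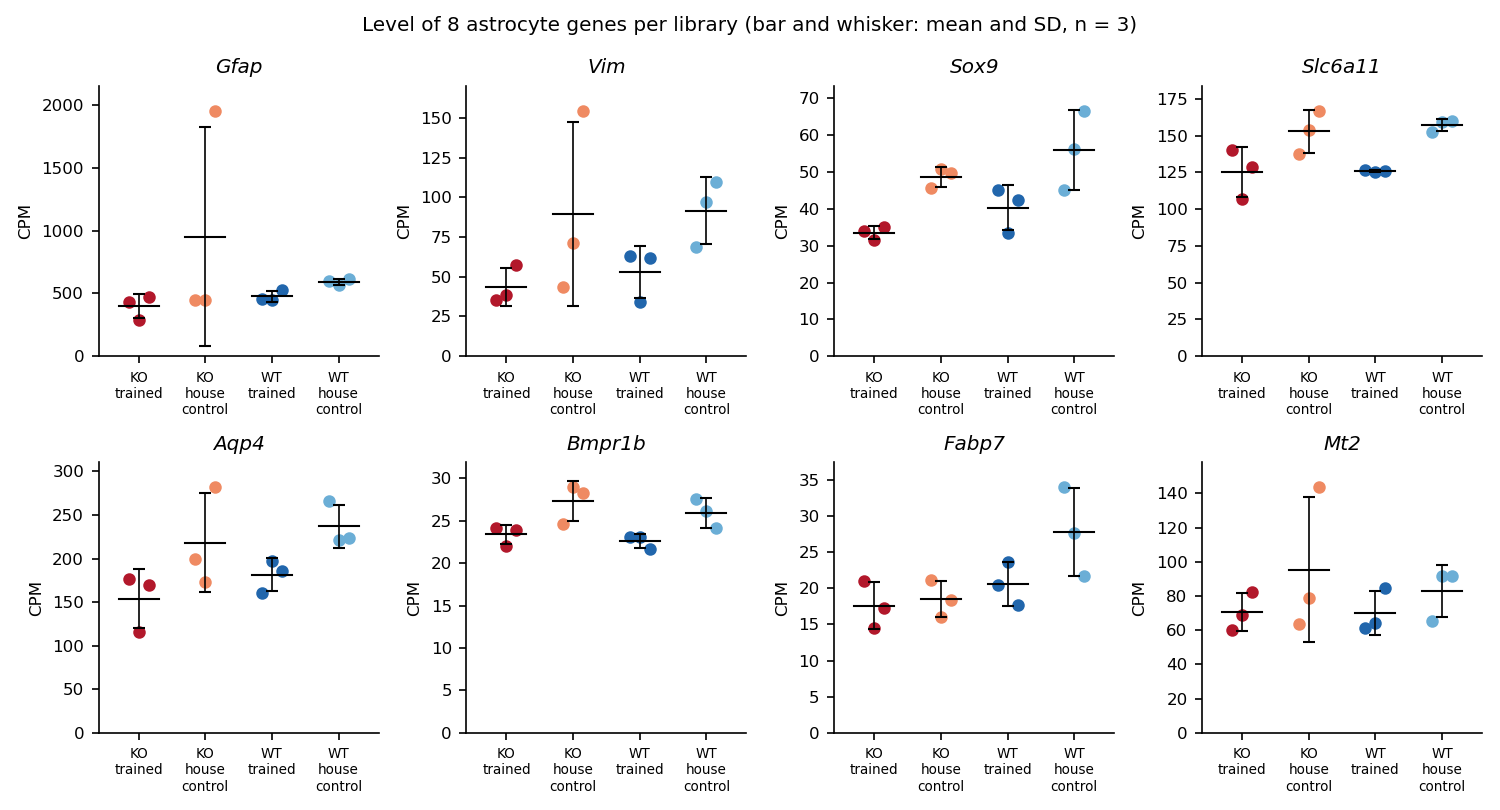
CPM of 8 astrocyte genes in each library, with a horizontal bar for the mean and whiskers for the SD of each group of 3, and all axes starting at 0. Bmpr1b keeps trained and house control libraries apart within each genotype (share of all genes not counted), Sox9 in KO and Slc6a11 in WT. The KO house control means of Gfap, Vim and Mt2 are pulled up by replicate 3, at 1956 CPM for Gfap.

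Among the cytoskeletal and calcium-binding genes, Gfap and Vim had the lowest fold changes of the 41, and 1 library set much of their size. Gfap, the astrocyte intermediate filament, had 436, 291 and 475 CPM in trained KO and 448, 448 and 1956 CPM in KO house controls, and 452, 449.6 and 526 CPM in trained WT against 599, 564 and 613 CPM in WT house controls. In WT the groups did not overlap, and in KO the fold change rested on replicate 3 of the house controls, whose level was 3.19 times that of the next highest library. The log2 fold change within KO was -1.25 (SE 0.49, adjusted p = 1.00 by edgeR), and -0.15 without that library. Over both genotypes it was -0.78 (SE 0.34, adjusted p = 0.444 by edgeR), and -0.23 without it.

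Vim, which encodes vimentin, the partner filament that also marks vessels and ependyma, had a median of 47.8 CPM in trained libraries (34.2 to 62.9) and 83.9 CPM in house controls (43.5 to 155). Its log2 fold change over both genotypes was -0.91 (SE 0.30, adjusted p = 0.414 by edgeR), -0.58 without KO house control replicate 3 and -0.39 without the 5 libraries high in these tissue markers. S100b, a calcium-binding protein of astrocytes and some oligodendrocytes, had 69.7, 95.1 and 85.3 CPM in trained KO and 73.3, 98.6 and 89.3 CPM in KO house controls, and 70.0, 61.5 and 68.8 CPM in trained WT against 65.4, 94.9 and 97.9 CPM in WT house controls. Its ranges overlapped in both genotypes (log2 fold change -0.22, SE 0.12).

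All 5 genes of water, ion and urea transport had a negative log2 fold change with training over both genotypes (median -0.27). Aqp4 and Atp1b2 were lower at an unadjusted p under 0.05. The shares among all genes were 52.3% negative and 6.59% lower at that p. Aqp4, the water channel of astrocyte endfeet, had 177, 115 and 169.7 CPM in trained KO and 199, 173 and 282 CPM in KO house controls, and 161, 198 and 186 CPM in trained WT against 266, 222 and 224 CPM in WT house controls. The WT groups were apart, and in KO the ranges overlapped by 1 library. The log2 fold change was -0.44 (SE 0.14, adjusted p = 0.414 by edgeR). Atp1b2, a sodium pump subunit, averaged 524 ± 35.7 CPM in trained and 607 ± 63.0 CPM in house control libraries (SD, n = 6 each). The bicarbonate transporter gene Slc4a4 had a fold change of -0.12, the urea transporter gene Slc14a1 -0.27 and the zinc importer gene Slc39a12 -0.31, all on the log2 scale. Without KO house control replicate 3, Atp1b2 had -0.14, beside -0.21 with it, Slc4a4 -0.067 and Slc14a1 -0.17, and without WT house control replicate 3 Slc39a12 had -0.20.

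The glutamate transporter genes had log2 fold changes with training close to 0 over both genotypes. Slc1a2, which encodes GLT-1, had 3203, 3003 and 3027 CPM in trained KO and 3778, 3442 and 3064 CPM in KO house controls, and 3162, 3686 and 2683 CPM in trained WT against 3764, 3080.1 and 2138 CPM in WT house controls. Its WT house controls alone spanned nearly the whole range, and the log2 fold change was -0.04 (SE 0.14). The authors' deposited tables give Slc1a2 opposite signs, 0.088 within WT and -0.148 within KO. Slc1a3, which encodes GLAST, had 572, 458 and 569.8 CPM in trained KO and 569, 657 and 531 CPM in KO house controls, and 541, 641 and 469 CPM in trained WT against 614, 645 and 458 CPM in WT house controls. The groups overlapped in both genotypes (log2 fold change -0.10, SE 0.11). The mitochondrial glutamate carrier gene Slc25a18 had -0.23 (SE 0.14) on the same scale, and -0.14 without KO trained replicate 2. Slc7a10, which encodes a transporter of glycine and D-serine, had 25.6, 35.7 and 22.2 CPM in trained KO and 29.5, 26.7 and 26.0 CPM in KO house controls, and 27.8, 20.7 and 43.2 CPM in trained WT against 25.1, 42.4 and 66.4 CPM in WT house controls. Its highest 3 values were in WT libraries rich in choroid plexus transcripts.

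The 4 genes of gap junctions and membrane contact had log2 fold changes between -0.32 and -0.28 over both genotypes. Of them 3 were lower at an unadjusted p under 0.05. Of all genes, 52.3% were negative and 6.59% lower at that p. Gja1, which encodes connexin 43, had 213, 197 and 216 CPM in trained KO and 241, 259 and 314 CPM in KO house controls, and 247, 249 and 219.9 CPM in trained WT against 302, 294 and 216 CPM in WT house controls. The KO groups were apart and the WT groups overlapped because of 1 low house control (-0.28 on the log2 scale, SE 0.10, with an edgeR adjusted p of 0.414). Mlc1, a membrane protein of endfeet, averaged 160.2 ± 12.2 CPM in trained and 197 ± 26.1 CPM in house control libraries (SD, n = 6 each). Its binding partner Hepacam averaged 104 ± 12.4 CPM in trained and 129.7 ± 23.2 CPM in house control libraries, and Gjb6, which encodes connexin 30, 43.0 ± 3.50 CPM in trained and 53.7 ± 15.4 CPM in house control libraries. Without KO house control replicate 3 the log2 fold change of Gjb6 was -0.13, beside -0.32 with it.

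Among 7 metabolic enzymes, 6 had a negative log2 fold change (median -0.13), beside 52.3% of all genes. At an unadjusted p under 0.05, 3 were lower, beside 6.59% of all genes. Aldh1l1, a folate enzyme used as a marker of nearly all astrocytes, had 42.4, 48.5 and 46.9 CPM in trained KO and 45.1, 59.4 and 67.0 CPM in KO house controls, and 44.1, 39.9 and 47.2 CPM in trained WT against 44.4, 57.8 and 59.7 CPM in WT house controls. In each genotype replicate 1 of the house controls lay at the level of the trained libraries (-0.31 on the log2 scale, SE 0.11, with an edgeR adjusted p of 0.414). Cbs had 25.7, 25.2 and 21.2 CPM in trained KO and 26.6, 34.2 and 33.7 CPM in KO house controls, and 26.2, 23.5 and 26.0 CPM in trained WT against 29.1, 28.7 and 25.6 CPM in WT house controls. Its KO groups were apart, with a log2 fold change within KO of -0.39 (SE 0.11, adjusted p = 1.00 by edgeR).

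Glul had 1387, 1472 and 1435 CPM in trained KO and 1471, 1769 and 1467 CPM in KO house controls, and 1294, 1387 and 1333 CPM in trained WT against 1363, 1539 and 1277 CPM in WT house controls. The groups overlapped in both genotypes, with a log2 fold change of -0.10 (SE 0.08). Dio2, the enzyme with which astrocytes activate thyroid hormone, averaged 68.4 ± 13.7 CPM in trained and 56.8 ± 14.6 CPM in house control libraries (SD, n = 6 each). Its log2 fold change was positive, 0.28 (SE 0.17), and 0.15 without WT trained replicate 2. F3, the coagulation tissue factor, and Gpc5, a glypican, were the other positive genes, at 0.07 and 0.06. In the list of 8 thyroid hormone genes, of which 7 were tested, 4 were positive and 3 negative, beside 47.7% positive among all genes. Klf9, which was higher, was the 1 gene with an unadjusted p under 0.05, beside 4.57% of all genes that were higher.

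Of the 7 lipid carriers and secreted proteins, 6 had a negative log2 fold change with training (median -0.24), beside 52.3% of all genes. At an unadjusted p under 0.05, 3 were lower (Apoe, Clu and Pla2g7), beside 6.59% of all genes. Apoe had 1365, 1579 and 1632 CPM in trained KO and 1806, 1803 and 1514 CPM in KO house controls, and 1563, 1541 and 1759 CPM in trained WT against 1689, 2192 and 2237 CPM in WT house controls. In each genotype 1 house control lay within the trained range, and the log2 fold change was -0.25 (SE 0.10, adjusted p = 0.425 by edgeR). The highest Apoe values, 2192 and 2237 CPM, were in WT house controls rich in choroid plexus transcripts. Clu was also highest in one of these, WT house control replicate 3. Pla2g7, which encodes an enzyme that degrades platelet-activating factor, had 113, 88.4 and 129.6 CPM in trained KO and 122, 153 and 133 CPM in KO house controls, and 141, 120.0 and 134 CPM in trained WT against 152, 147 and 150.5 CPM in WT house controls. The WT groups were apart and the KO groups overlapped (-0.24 on the log2 scale, SE 0.09, with an edgeR adjusted p of 0.422). Sparcl1 and the protease gene Htra1 had -0.12 and -0.01 on the log2 scale.

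The metallothioneins are small proteins that bind zinc and copper, and Mt1 and Mt2 are induced by metals and glucocorticoids while Mt3 is made mainly in brain. The 3 genes lie side by side on chromosome 8 in mm10, Mt3 from 94152607 to 94154146, Mt2 from 94172664 to 94173568 and Mt1 from 94179082 to 94180327, all on the plus strand. Their promoter windows, 250 bases before to 50 after the RefSeq start (GRCm38.p6), are printed because the levels of Mt1 and Mt2 varied together across libraries while that of Mt3 did less. Capitals mark matches to the core of the metal response element, TGCACNC or TGCGCNC, on either strand, with no overlap between matches. The windows are Mt1 chr8:94178839-94179138, Mt2 chr8:94172368-94172667 and Mt3 chr8:94152357-94152656, 5′ to 3′.
Mt1: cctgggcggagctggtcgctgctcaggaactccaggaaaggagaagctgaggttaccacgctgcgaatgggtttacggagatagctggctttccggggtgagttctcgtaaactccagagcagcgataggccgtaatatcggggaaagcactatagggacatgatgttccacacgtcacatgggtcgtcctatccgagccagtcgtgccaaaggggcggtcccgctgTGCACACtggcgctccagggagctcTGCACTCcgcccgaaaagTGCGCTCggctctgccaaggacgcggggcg
Mt2: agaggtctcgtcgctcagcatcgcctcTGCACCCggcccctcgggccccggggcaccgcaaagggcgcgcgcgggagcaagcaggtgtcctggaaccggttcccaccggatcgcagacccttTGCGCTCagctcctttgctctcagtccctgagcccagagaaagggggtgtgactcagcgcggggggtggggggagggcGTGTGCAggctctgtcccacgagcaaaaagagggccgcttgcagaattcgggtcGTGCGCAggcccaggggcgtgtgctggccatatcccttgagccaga
Mt3: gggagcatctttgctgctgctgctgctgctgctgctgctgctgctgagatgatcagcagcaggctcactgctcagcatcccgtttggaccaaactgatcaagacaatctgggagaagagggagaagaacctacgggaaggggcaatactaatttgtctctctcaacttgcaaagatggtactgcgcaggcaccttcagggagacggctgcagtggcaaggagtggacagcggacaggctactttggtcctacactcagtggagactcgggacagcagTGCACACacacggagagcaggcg
Mt1 held 3 matches, Mt2 4 and Mt3 1. Of 32851 promoter windows of the same length, 25.7% held at least 1 match, 1.97% at least 3 and 0.517% at least 4. A match describes the letters and does not show binding.

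Mt1 had a median of 138 CPM in trained libraries (123 to 161) and 165 CPM in house controls (134 to 246), and Mt2 66.7 CPM in trained (60.1 to 84.8) and 85.2 CPM in house control libraries (63.5 to 144). Both were highest in KO house control replicate 3, and the ratio of Mt1 to Mt2 stayed between 1.71 and 2.33 in the 12 libraries, while that of Mt3 to Mt2 ran from 2.22 to 4.81. Mt3 had 272, 245 and 269 CPM in trained KO and 277, 274 and 319.7 CPM in KO house controls, and 293, 285 and 264 CPM in trained WT against 288, 272 and 263 CPM in WT house controls. Its log2 fold change with training was -0.06 (SE 0.06), beside -0.27 (SE 0.13) for Mt1 and -0.34 (SE 0.20) for Mt2, and none of the 3 had an unadjusted p under 0.05. Without KO house control replicate 3, Mt1 had -0.15 and Mt2 -0.12. Of 14 other genes of zinc and copper handling, 3 were lower (Slc39a8, Atp7b and Cp) and 1 higher (Slc39a10) at an unadjusted p under 0.05 (median -0.08). Among all genes 6.59% were lower and 4.57% higher at that p. Of 14 glucocorticoid-responsive genes 13 were positive (median 0.22), and 6, among them Per1, Klf9, Zbtb16 and Fkbp5, were higher at that p, beside 47.7% positive and 4.57% higher at that p among all genes. None of these was called at an adjusted p under 0.05 by edgeR.

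Among the receptors and surface proteins, Ntsr2, an astrocytic neurotensin receptor, had 93.5, 99.9 and 96.8 CPM in trained KO and 110.5, 134 and 126 CPM in KO house controls, and 92.4, 113 and 99.6 CPM in trained WT against 108, 116 and 94.1 CPM in WT house controls. The KO groups were apart and the WT groups overlapped. Its log2 fold change with training was -0.35 within KO (SE 0.10, adjusted p = 1.00 by edgeR) and -0.06 within WT (SE 0.10). The growth factor receptor gene Fgfr3 and the ATP-degrading enzyme gene Entpd2 had -0.05 and -0.15 over both genotypes. Id3, a regulator induced by BMP signals, averaged 28.9 ± 6.93 CPM in trained and 42.3 ± 10.96 CPM in house control libraries (SD, n = 6 each), a log2 fold change of -0.55 (SE 0.20, adjusted p = 0.422 by edgeR).

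Other astrocyte genes, in lists chosen with earlier results of these data known, lay lower in trained libraries too. Those lists are therefore no independent support. In a list of 40 further astrocyte genes, 35 had a negative log2 fold change over both genotypes (median -0.15), beside 52.3% of all genes. At an unadjusted p under 0.05 by edgeR, 12 were lower and 1, Mertk, higher, beside 6.59% and 4.57% of all genes. Summed over the 40 genes, the level was 4924 to 5056 CPM in trained and 5337 to 6024 CPM in house control libraries, without overlap. Sox2, a transcription factor of glia and stem cells, had -0.37 (SE 0.08, adjusted p = 0.414 by edgeR). Of 34 reactive astrocyte genes 30 were tested, 24 of them negative (median -0.31), beside the same 52.3% of all genes. At an unadjusted p under 0.05 by edgeR, 7 were lower and 1 higher, again beside 6.59% and 4.57%. Serpina3n, a protease inhibitor gene of reactive astrocytes, had 55.1, 26.6 and 58.3 CPM in trained KO against 122, 162 and 165 CPM in KO house controls, a log2 fold change of -1.68 (SE 0.41, adjusted p = 1.00 by edgeR). In WT it had 149, 159 and 53.9 CPM in trained and 148, 182 and 107 CPM in house control libraries, where the ranges overlapped.

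Markers of several other cell types had negative log2 fold changes with training, while for some lists the direction differed between the genotypes. Over both genotypes the median log2 fold change with training was -0.60 for oligodendrocytes (14 of 14 negative), -0.31 for endothelial cells (11 of 11, with 8 lower at an unadjusted p under 0.05), -0.24 for mural cells (9 of 9, with -0.04 within KO) and -0.18 for microglia (11 of 12). It was -0.35 for choroid plexus (19 of 19), with 0.27 within KO and -0.96 within WT, and -0.78 for ependymal cells (10 of 10), -0.71 for leptomeningeal fibroblasts (15 of 17, with -0.02 within KO) and -0.80 for thalamus (13 of 13). Precursors of oligodendrocytes had -0.19 and neural stem cells with immature neurons -0.39. Of all genes, 52.3% were negative over both genotypes. At an unadjusted p under 0.05 by edgeR, 72.7% of endothelial, 53.8% of thalamus, 41.7% of microglia and 33.3% of stem cell markers were lower. The share was 22.2% for mural cells and for oligodendrocyte precursors and 17.6% for leptomeningeal fibroblasts. It was 0% for oligodendrocytes, ependymal cells and choroid plexus, beside 43.9% of the 41 genes and 6.59% of all genes. Striatum and septum markers had 0.31 within KO, where 2 of 15 were negative, and -1.19 within WT, where 13 were. Of all genes, 50.9% were negative within KO and 51.7% within WT. Neocortex markers had 0.10 within KO and -0.30 within WT. For dentate granule neurons the median was -0.06 within KO and 0.08 within WT. Over both genotypes it was 0.27 for CA1 pyramidal neurons and 0.18 for neurons in general. Of the latter, 10 of 12 were positive, beside 47.7% of all genes. The summed level of the neuron markers was 13218 to 16989 CPM in trained and 10130.5 to 16342 CPM in house control libraries. Summed oligodendrocyte markers ran from 3059 to 9916 CPM in trained and from 3593 to 15388 CPM in house control libraries, and endothelial markers from 233 to 268 CPM in trained and from 267 to 396 CPM in house control libraries. None of these markers was at 0 in all libraries, and their part in the lower astrocyte levels was not tested.

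**Figure D5:**
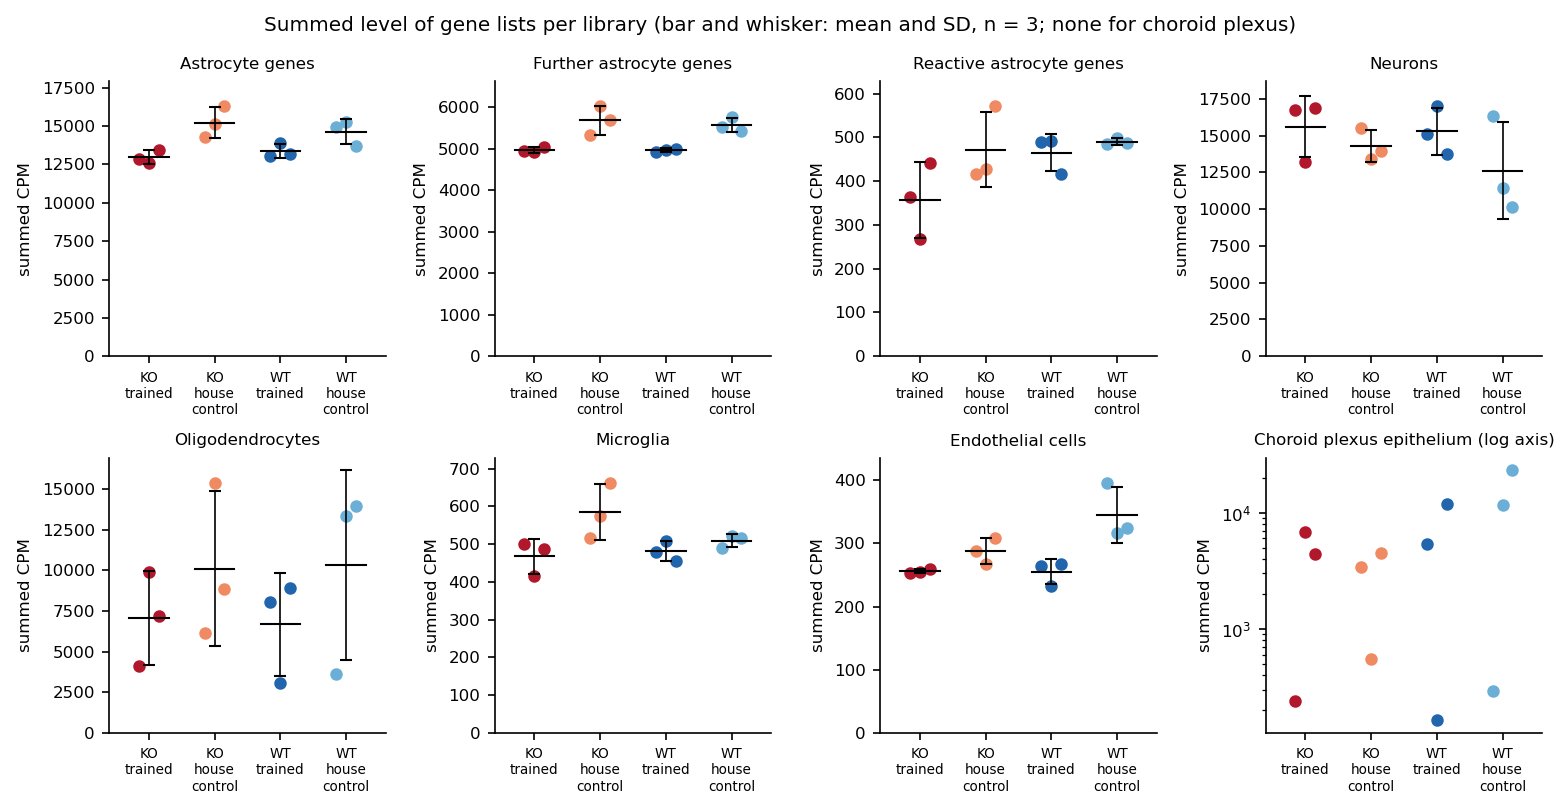
Summed CPM of 8 gene lists in each library, with the mean and SD of each group of 3 except for choroid plexus, which is on a log axis. The further astrocyte list does not overlap, with 4924 to 5056 CPM in trained and 5337 to 6024 CPM in house control libraries, while the sums of the 41 genes, of endothelial markers and of neuron markers do, and choroid plexus markers run from 163 to 23055 CPM.

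The comparison of KO with WT asked which transcripts differ with Mbnl2 genotype, and none of the 41 astrocyte genes passed the threshold. By edgeR so few of all genes were called that 0 of 41 does not set the astrocyte genes apart. Over both treatments edgeR called 0 of the 41 genes, while it called 90 of 15622 genes (0.576%), and DESeq2 called 0 of the 41, beside 5.04% of all genes. Log2 fold changes, KO-labelled over WT, were negative for 23 and positive for 18, beside 52% negative among all genes, with a median of -0.01. At an unadjusted p under 0.05, 2 genes were lower and 0 higher, beside 5.89% of all genes that were lower and 8.54% that were higher. In trained mice 27 were negative and 14 positive (median -0.05, beside 52.4% negative among all genes), and in house controls 17 were negative and 24 positive (median 0.03, beside 50.2%). edgeR called 0 of the 41 and 2 of 15622 genes (0.0128%) within each treatment, and DESeq2 called 0 of the 41, beside 0.752% of all genes in trained mice and 1.39% in house controls. At an unadjusted p under 0.05, 1 gene was lower and 0 higher in house controls, beside 4.56% of all genes lower and 6.11% higher, and 0 were in trained mice, beside 2.71% lower and 3.74% higher.

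Fabp7 was the gene with the smallest p for genotype. It encodes the brain fatty acid-binding protein of astrocytes and radial stem cells. It had 21.0, 14.5 and 17.3 CPM in trained KO-labelled against 20.5, 23.7 and 17.7 CPM in trained WT libraries, and 21.1, 16.1 and 18.4 CPM in KO-labelled against 34.0, 27.6 and 21.8 CPM in WT house controls. All KO-labelled house controls lay below all WT house controls, the nearest pair by little, while the trained groups overlapped. The log2 fold change was -0.40 over both treatments (SE 0.13, unadjusted p = 0.0123, adjusted p = 0.202 by edgeR) and -0.58 in house controls (SE 0.19, adjusted p = 0.355 by edgeR). Without the 5 libraries high in these tissue markers the house control value was -0.88. That fit keeps 1 WT house control, replicate 1, which had the highest Fabp7 level of any library. Over all alternatives the house control value ran from -0.88 to -0.41. The authors' deposited table gives -0.58 with an adjusted p of 0.278 in house controls.

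Groups did not overlap for F3, lower in KO-labelled house controls together with Fabp7 (beside 6.09% of all genes), and for Htra1, which was higher there (beside 6.93%). In trained mice Gja1 was lower without overlap, beside 6.38% of all genes. None of the 41 kept its 6 KO-labelled libraries apart from its 6 WT libraries, beside 0.717% of all genes that were lower and 1.06% that were higher without overlap. Sox9 had a log2 fold change of -0.23 over both treatments (SE 0.10, adjusted p = 0.321 by edgeR), and -0.16 without WT house control replicate 3. Pla2g7 had -0.19 (SE 0.09, adjusted p = 0.375 by edgeR), and -0.12 without KO trained replicate 2. In house controls Ntsr2 had 0.22 (SE 0.10, adjusted p = 0.486 by edgeR) and Slc7a10 -0.71 (SE 0.34, adjusted p = 0.491 by edgeR), and without WT house control replicate 3 they had 0.14 and -0.30. The Slc7a10 value turned to 0.16 without the 3 house controls among those 5 libraries, a fit with 1 WT house control. In trained mice S100b had 0.32 (SE 0.17, adjusted p = 0.819 by edgeR).

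The interaction asked whether the training difference itself differed between KO and WT. edgeR called 0 of the 41 and 0 of 15622 genes (0%), and 0 of the 41 had an unadjusted p under 0.05, beside 1.5% of all genes. DESeq2 also called 0 of the 41. The median of the 41 was -0.06, with 30 negative, beside 51.4% of all genes. Ntsr2 had the smallest p, with a log2 difference of -0.29 (SE 0.15, adjusted p = 1.00 by edgeR), followed by Cbs (-0.25, SE 0.16) and Mt3 (-0.18, SE 0.12). Without KO house control replicate 3, Mt3 had -0.096 and the Gfap difference turned to 0.16, beside -0.93 (SE 0.68) with it. Without KO trained replicate 3, Cbs had -0.16.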

How the data were processed

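RNA of the mouse dorsal hippocampus was sequenced in 12 libraries, 3 in each of 4 groups taken from the labels. The authors deposited raw read counts per gene for each library, and the submitters' processing notes name HTSeq 0.9.1, TopHat2 2.1.1, Bowtie2 2.3.4.2, cutadapt 1.18, DESeq2 1.18.1 and the mm10 build. How strand was handled and which annotation was counted is not stated in them. The authors also deposited 4 tables of comparisons whose columns, per the file headers, are those of a DESeq2 results table. In them the authors give a mean signal (counts divided by size factors), and a log2 fold change with its error. The authors also give the test statistic, a score, together with a raw p-value and one adjusted for multiple testing. Their directions (trained over house control and KO over WT) were checked against the counts.

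The 41 members were found by symbol. The members, the role groups and the other gene lists were chosen with earlier results of these data known. The values in every library are given for the 3 genes with the smallest unadjusted p in each comparison and for Gfap, Aqp4, Slc1a2, Slc1a3, Gja1, Aldh1l1, Glul and Sox9, and from the other lists at most 2 genes per comparison are described with their statistics.

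The analysis used edgeR 4.0.16 with limma 3.58.1 under R 4.3.3. The filterByExpr function, at a minimum count of 10 and a minimum total of 15, retained 15622 genes, and TMM scaled the libraries. A quasi-likelihood model with 4 group means and 8 residual degrees of freedom gave 7 comparisons, which are training within WT, within KO and over both, genotype within each treatment and over both, and the interaction. P-values were adjusted over all genes by Benjamini and Hochberg, with a threshold of 0.05. Of 3 libraries against 3, an exact permutation test cannot go below p = 0.1, so none was used. The procedure was tested on simulated data. Alternatives were DESeq2 1.42.0, other scaling and filters, only the compared libraries, and libraries left out. The library series was also used as a covariate, or the first series was kept alone. By their numbers, the first series held 8 libraries and the second 4, which were replicate 3 of each group. Annotation was GENCODE for mm10, which matched 95.7% of symbols. Promoter sequences came from RefSeq (GRCm38.p6), with an entry for 35 of the 41. Library totals of 19737929 to 27427076 counts set the counting error, and 3 counts corresponded to 0.109 to 0.152 CPM.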

Additional observations from a re-analysis of the deposited data

Results flagged for a closer look

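Each of the 41 genes was examined in 4 groups of 6 libraries (KO, WT, trained and house control) for a highest or lowest library that lay far from the next. The rule was Dixon's, the gap to the next library over the range of the 6. Of the 164 groups 19 held such a library, in 14 genes. For 6 normal values of one kind the rule flags about 1 in 20. The sets pool treatments or genotypes and use CPM without logs, so 1 in 20 is no firm chance rate here. Genes that share a library are not independent of each other.

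KO house control replicate 3 was the library set apart for most of them. It was highest for Gfap at 1956 CPM, for Mt1 at 246 CPM and for Mt2 at 144 CPM, in each case both among the 6 KO and among the 6 house control libraries. Among the KO libraries it was also highest for Vim at 155 CPM, Atp1b2 at 719.8 CPM, Gjb6 at 78.6 CPM and Id3 at 59.6 CPM. It was lowest for F3, at 27.9 CPM, in both sets. Its ratio of Gfap to Aqp4 was 6.93, beside 2.25 to 2.82 in the other 11 libraries.

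KO house control replicate 2 was highest for Glul at 1769 CPM and Fgfr3 at 118 CPM among the KO libraries, and for Cyp4f15 at 13.5 CPM among the house controls. WT house control replicate 3 was lowest for Htra1, at 118 CPM, among both the WT and the house control libraries. WT trained replicate 2 was highest for Ntsr2 among the trained libraries, at 113 CPM. WT house control replicate 2 was highest for Entpd2 among the WT libraries, at 14.9 CPM.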

How the results depend on the processing

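No paired analysis was possible because the labels carry no number that ties a library of one group to one of another. For training over both genotypes, the median log2 fold change of -0.24 was -0.16 without the 3 house controls and -0.14 without the 5 libraries that are high in choroid plexus or thalamus markers. The 18 genes lower at an unadjusted p under 0.05 became 10 in the first library series alone, 9 and 5 without those 3 and 5 libraries and 11 without the KO libraries numbered 2, and DESeq2 called 2 at an adjusted p under 0.05. Within WT the median of -0.20 was -0.12 without the 5 libraries, and the 5 lower genes became 8 by DESeq2, 10 with the series as a covariate, 3 in the first series and 2 to 10 with each library left out. Within KO the median of -0.22 was -0.15 without the 5 libraries. There the 13 lower genes became 6 with only the compared libraries, 3 in the first series, 4 without the 3 and 3 without the 5 libraries, 5 without the KO libraries numbered 2, and 3 to 19 with each library left out. Negative fold changes numbered 35 to 39 of 41 over both genotypes, 31 to 38 within WT and 33 to 39 within KO. The shares of all genes lower or negative in these alternative fits were not counted. Whether the changed counts are particular to the 41 genes was therefore not tested. The median for genotype in house controls (0.03) was -0.072 in the first series and -0.079 to 0.10 with each library left out, without KO replicates 3 and 1 at the ends, and the interaction's median (-0.06) was -0.14 to 0.014. Slc7a10 for genotype in house controls (-0.71) turned to 0.16 and 0.15 without the 3 and the 5 libraries, and Gfap for training within KO (-1.25) to 0.032 without the 5. The cause was not tested. Fits without the 3 or 5 libraries hold 1 WT house control, assumed to vary like the other groups.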

Other observations

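KO house control replicate 3, the library with the highest Gfap level, was also the highest for 4 genes outside the 41 that are named here. In the list of reactive astrocyte genes as a whole, the median centred log2 level was 0.33 in that library and 0.38 in WT house control replicate 3, and Serpina3n was highest in WT house control replicate 2, at 182 CPM. C4b, a complement gene, had 165 CPM in KO house control replicate 3 and 19.3 to 61.4 CPM in the other 11 libraries. Itih3, which encodes a heavy chain of the inter-alpha-trypsin inhibitor, had 28.7 CPM there and 7.57 to 15.9 CPM in the others. The injury-induced genes Timp1 and Lcn2 had 1.40 and 1.45 CPM there. In the other 11 libraries Timp1 had 0.0766 to 0.411 CPM and Lcn2 0 to 0.372 CPM. These levels are low, as 3 counts corresponded to 0.109 to 0.152 CPM. C4b, Timp1 and Lcn2 were chosen after their values were seen. In the comparison of KO-labelled with WT mice over both treatments, Mertk, a receptor for engulfment of cell debris, had a log2 fold change of 0.32 (adjusted p = 0.129 by edgeR). The small heat shock protein gene Hspb1 had -0.63 (adjusted p = 0.0828 by edgeR) and the thyroid hormone receptor gene Thrb 0.30 (adjusted p = 0.206 by edgeR), and none of the 3 passed the threshold.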
